A study of Homo sapiens with 8 samples.

Results

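The 45 genes described here work in protein folding, translocation and quality-control degradation at the endoplasmic reticulum (ER). They were chosen by symbol, and all 45 were found among the 19964 genes with a coding transcript in the count files. HEK293T, a human embryonic kidney cell line that carries the SV40 large T antigen, was treated for 30 min with 40 µM sodium arsenite, which causes oxidative stress, or with vehicle. Each treatment was profiled by ribo-seq and mRNA-seq in 2 replicates, which gave 4 groups (control and arsenite in each assay) and 8 libraries from this 1 line, with no genetic change between the groups. Ribo-seq counts the mRNA fragments that ribosomes cover, here over the coding sequence (CDS), and mRNA-seq counts fragments of the whole transcript. Translation efficiency (TE) is ribosome occupancy relative to mRNA level. The series asked which mRNAs stay translated when arsenite lowers protein synthesis, and the comparisons below ask where the mRNAs of the ER folding and degradation machinery stood in that response.

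The ER takes in proteins that are made by ribosomes docked at its membrane. The signal recognition particle brings the ribosome to its receptor, the SEC61 channel takes up the growing chain, and the translocon-associated TRAP complex sits beside the channel. Inside the ER, the lectins calnexin and calreticulin hold glycoproteins while they fold, and protein disulfide isomerases form and rearrange their disulfide bonds. Chains that fail to fold are pulled back to the cytosol and degraded, a route called ERAD, and the sensors of the unfolded protein response raise the transcription of many of these genes when folding falls behind.

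On the transcripts used, libraries held 1023935 to 7270196 ribo-seq reads and 3993293 to 21724945 mRNA-seq reads, and replicate 2 was the deeper replicate in every group. The 45 genes took 0.726% to 0.972% of the ribo-seq CDS reads and 0.658% to 0.841% of the mRNA-seq reads of a library. Of markers for the line, VIM stood at 277 to 402 CPM (mRNA-seq counts per 1000000 reads, after scaling), KRT18 at 22.0 to 36.1 and KRT8 at 6.33 to 14.5. The kidney precursor factors LHX1 and PAX2 were low, at 1.55 to 3.88 CPM. ALB and PTPRC stayed under 1 CPM and HBB had 0 reads, which allows up to 3 counts per library. ATF4, the stress transcription factor that is no member of the list, had 543 and 1511 CDS ribo-seq reads in control against 912 and 4198 in arsenite, and its TE was higher by 2.28 ± 0.29 (log2 ± SE, n = 2 replicates, adjusted p = 0.0112 by edgeR's quasi-likelihood test). All changes given here are relative to the bulk of mRNAs, because libraries were scaled within each assay, so a log2 change of 0 means that an mRNA moved as the bulk did. In these bulk libraries, fewer cells and less RNA per cell cannot be told apart. The methods describe the replicates as biological and independent. Each p-value and SE draws on the spread between only 2 of them, which edgeR pools with a trend shared by genes of like level. The SE of a gene is therefore not its own replicate spread alone.

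The mRNA level of 10 of the 45 genes changed after 30 min of arsenite, and 7 of the 10 rose. The 7 were the lectins calnexin (CANX) and calreticulin (CALR), the disulfide isomerases P4HB and PDIA4, the chaperone HYOU1 and the translocon subunits SEC61A1 and SEC63. SEC61B, UBE2G2 and SRP14 fell. The changes were small, between 0.16 and 0.29 on the log2 scale for the 7 that rose and between -0.19 and -0.16 for the 3 that fell. Of all 12600 genes tested, 5.75% passed (edgeR's quasi-likelihood test, p adjusted after Benjamini-Hochberg under 0.05), made up of 3.75% that were higher and 2.00% that were lower, against 22.2% of the list. The list was read more deeply than most genes, and among the 3305 genes with a mean of at least 1000 mRNA-seq reads 13.6% passed, against 10 of 31 members of that depth (32.3%). The median log2 change of the 45 genes was 0.07, beside -0.01 over all genes tested, and 0.03 in replicate 1 and 0.08 in replicate 2. Standard errors ran from 0.049 to 0.15. The changes within the 2 replicates had a Pearson correlation of 0.426 over the 45 genes and 0.108 over all 12600. When the replicate was not a block in the model, 0 of 12600 genes passed, and DESeq2 called CANX alone among the members. PDIA4, HYOU1, SEC63 and SRP14 each lost the call under at least 1 other scaling, filter or transcript choice, with adjusted p of 0.0518 to 0.0748 by edgeR.

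**Figure D1:**
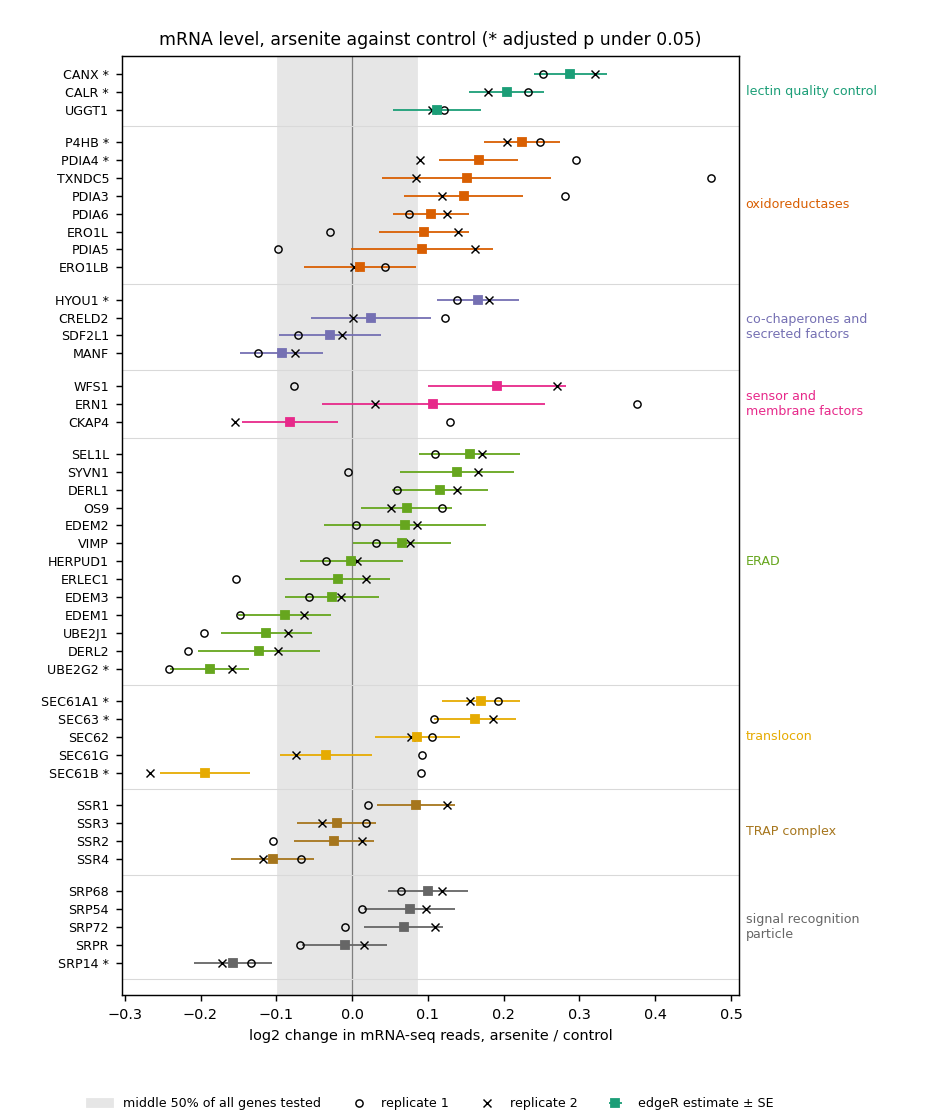
Log2 change in mRNA-seq reads, arsenite against control, of the 45 genes by role. Squares and bars give the edgeR estimate ± SE, circles and crosses the change within replicates 1 and 2, the grey band the middle 50% of all 12600 genes tested and asterisks an adjusted p under 0.05. The estimates of all 8 oxidoreductases and all 3 lectin quality-control genes lie above 0, with the replicates of PDIA5 and ERO1L on opposite sides, and of the 10 genes that passed SEC61B has its replicates on opposite sides.

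The lectin quality-control group had 2 of its 3 genes among those that rose. CANX (NM_001746), the membrane-bound lectin chaperone, had 1105 and 727 mRNA-seq CPM in control replicates 1 and 2, and 1315 and 908 in arsenite. The replicates differed in level, so that the groups overlap, but the arsenite library was the higher within each replicate, and the change was 0.29 ± 0.05 (log2 ± SE, n = 2, adjusted p = 5.27e-07 by edgeR). CALR (NM_004343), the soluble lectin of the same cycle, had 747 and 330 CPM in control compared with 878 and 374 in arsenite. Its change of 0.20 ± 0.05 (n = 2, adjusted p = 0.00197 by edgeR) had the same sign in both replicates, 0.23 and 0.18. UGGT1, the enzyme that marks unfolded glycoproteins for another round of binding, stood at 0.11 ± 0.06 and did not pass.

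All 8 oxidoreductases had a positive estimate, 6 of them with the same sign in both replicates, and 2 passed. P4HB (NM_000918), the main protein disulfide isomerase, had 584 and 321 mRNA-seq CPM in control against 693 and 370 in arsenite. Its change was 0.22 ± 0.05 (n = 2, adjusted p = 0.000494 by edgeR), with 0.25 and 0.20 within the replicates. PDIA4 (NM_004911), a larger isomerase of the same family, had 257 and 183 CPM in control compared with 315 and 194 in arsenite, a change of 0.17 ± 0.05 (n = 2, adjusted p = 0.029 by edgeR). It was larger within replicate 1 (0.30) than within replicate 2 (0.09). The other 6 lay between 0.01 and 0.15 and did not pass, among them PDIA3, the isomerase that works with the lectins, at 0.15 ± 0.08, and ERO1LB, an oxidase that recharges the isomerases, at 0.01 ± 0.07. Its paralog ERO1L stood at 0.10 ± 0.06.

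Among the co-chaperones and secreted factors, HYOU1 (NM_006389), a large ER chaperone of the HSP70 class, rose. Its CPM were 198 and 128 in control against 218 and 145 in arsenite, a change of 0.17 ± 0.05 (n = 2, adjusted p = 0.0409 by edgeR). SDF2L1, MANF and CRELD2, which are secretory-pathway proteins and known products of the unfolded protein response, had changes of -0.03 ± 0.07, -0.09 ± 0.05 and 0.03 ± 0.08 and did not pass. The sensor and membrane factors gave no call among 3. WFS1, an ER membrane protein named after Wolfram syndrome, was at 0.19 ± 0.09. The kinase and nuclease ERN1, which senses unfolded proteins, stood at 0.11 ± 0.15 on 37 to 179 mRNA-seq reads per library, and CKAP4, a membrane protein of ER sheets, at -0.08 ± 0.06.

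In the translocon, 3 of 5 genes passed, and they did not move together. SEC61A1 (NM_013336), the pore-forming subunit, had 313 and 228 mRNA-seq CPM in control compared with 358 and 254 in arsenite, a change of 0.17 ± 0.05 (n = 2, adjusted p = 0.0234 by edgeR). SEC63 (NM_007214), which recruits the lumenal HSP70 to the channel, had 163 and 170 in control against 176 and 193 in arsenite, a change of 0.16 ± 0.05 (n = 2, adjusted p = 0.046 by edgeR). For SEC63 the 2 control libraries lie below the 2 arsenite libraries. SEC61B (NM_006808), a small tail-anchored subunit, had 75.2 and 148 in control compared with 80.1 and 123 in arsenite. Its fitted change was -0.19 ± 0.06 (n = 2, adjusted p = 0.0261 by edgeR), but the change was 0.09 within replicate 1 and -0.27 within replicate 2, so the call rests on replicate 2. SEC61G and SEC62, another small subunit and a partner of SEC63, were at -0.03 ± 0.06 and 0.09 ± 0.06.

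The targeting and TRAP genes held 1 call. SRP14 (NM_003134), a small protein of the signal recognition particle that helps to slow elongation, had 353 and 297 mRNA-seq CPM in control against 322 and 263 in arsenite, a change of -0.16 ± 0.05 (n = 2, adjusted p = 0.0419 by edgeR). The other 4 targeting genes (SRP54, SRP68, SRP72 and the receptor SRPR) lay between -0.01 and 0.10. The 4 TRAP genes lay between -0.11 and 0.08, with SSR4 at -0.11 ± 0.06, and none of these 4 passed. The files list the copy SSR4P1 beside SSR4, so reads that fit both were discarded and the SSR4 counts are uncertain.

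Of the 13 ERAD genes, 1 changed in mRNA level. UBE2G2 (NM_003343), a ubiquitin-conjugating enzyme of ERAD, had 289 and 279 mRNA-seq CPM in control compared with 245 and 249 in arsenite, and fell by 0.19 on the log2 scale (SE 0.05, n = 2, adjusted p = 0.0104 by edgeR). Its 2 arsenite libraries lie below its 2 control libraries. UBE2J1, the ubiquitin-conjugating enzyme anchored in the ER membrane, and DERL2, a derlin of the retrotranslocation complex, had negative changes in both replicates, with fitted values of -0.11 ± 0.06 and -0.12 ± 0.08, and did not pass. The median of the ERAD genes was 0.00, beside 0.13 for the oxidoreductases. HERPUD1, a membrane protein that supports the SYVN1 ubiquitin ligase and a known target of the unfolded protein response, was at 0.00 ± 0.07. OS9, a lectin that brings substrates to the ligase and the ERAD gene with most control ribo-seq reads, was at 0.07 ± 0.06. The 13 genes ran from -0.19 to the 0.155 of SEL1L, the scaffold of the ligase.

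**Figure D2:**
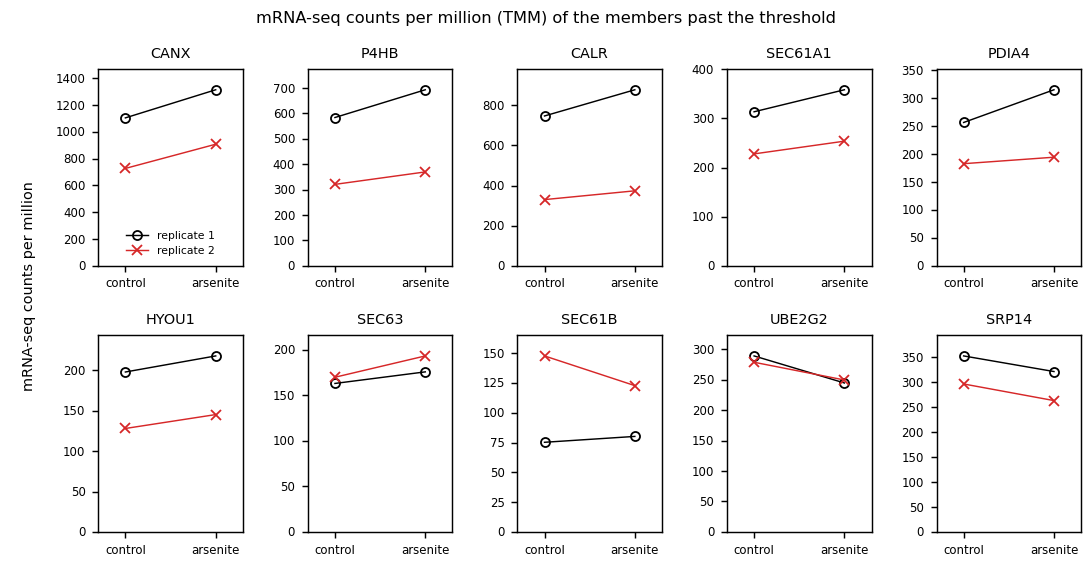
mRNA-seq CPM (scaled by TMM) in control and arsenite for the 10 members whose mRNA level passed the test. Lines join libraries of the same replicate (circles replicate 1, crosses replicate 2) and each vertical axis starts at 0. The lines slope the same way in 9 genes, and in opposite ways for SEC61B.

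The counts over the CDS alone, which leave out mRNA-seq reads of leaders and 3′ UTRs, gave 3 calls among the 45 genes. These were CANX (0.35, adjusted p = 0.000233 by edgeR), CALR (0.25, adjusted p = 0.0106) and P4HB (0.21, adjusted p = 0.0273), and the other 7 kept their sign with adjusted p of 0.0905 to 0.202. With the Z-score described in the methods, applied to replicate 2, the highest absolute value among the 45 genes was 2.34 against a threshold of 4.

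Many genes of this machinery are known targets of ATF6 and XBP1, transcription factors of the unfolded protein response that bind ER stress elements near the transcription start. Promoters from RefSeq (GRCh38.p14, 250 bases before to 50 after each start) were given for 42 of the 45 genes, and PDIA3, DERL1 and SRPR had no entry. The first element searched, ERSE, is CCAAT and CCACG with 9 bases of any kind between them, and the other, ERSE-II, is ATTGG and CCACG with 1 base between them, each on either strand. ERSE was in 0.0769% and ERSE-II in 0.0541% of all 35116 promoters of that length. Counted by gene, 8 of the 42 (19.0%) had ERSE or ERSE-II in at least 1 promoter, beside 0.161% of all 27305 gene symbols. The 8 genes are shown because 3 of them (CANX, CALR, HYOU1) rose in mRNA level and the other 5 carry the same elements without such a call. Each is printed 5′ to 3′ on the strand of its gene, with the 5-base parts of the element in capitals and up to 15 flanking bases in lower case.
CANX (ERSE, chr5:179698763-179698811, plus strand): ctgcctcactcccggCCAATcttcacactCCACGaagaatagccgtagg
CALR (ERSE, chr19:12938369-12938417, plus strand): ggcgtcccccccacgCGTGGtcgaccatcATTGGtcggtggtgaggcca
PDIA6 (ERSE, chr2:10812838-10812886, minus strand): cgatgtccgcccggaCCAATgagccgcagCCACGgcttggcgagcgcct
ERO1LB (ERSE, chr1:236282168-236282208, minus strand): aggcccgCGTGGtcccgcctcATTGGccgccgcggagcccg
CRELD2 (ERSE, chr22:49918539-49918587, plus strand): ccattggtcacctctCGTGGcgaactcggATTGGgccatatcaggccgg
HERPUD1 (ERSE-II, chr16:56932010-56932050, plus strand): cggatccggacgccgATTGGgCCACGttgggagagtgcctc
SDF2L1 (ERSE-II, chr22:21642099-21642139, plus strand): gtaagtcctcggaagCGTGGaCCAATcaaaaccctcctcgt
HYOU1 (2 ERSE-II, chr11:119057259-119057405, minus strand): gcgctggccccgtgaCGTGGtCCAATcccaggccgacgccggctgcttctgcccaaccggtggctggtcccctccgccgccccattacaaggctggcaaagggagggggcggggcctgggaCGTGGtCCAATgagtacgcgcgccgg

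The element lay on the strand of the gene in CANX, PDIA6 and HERPUD1 and on the opposite strand in CALR, ERO1LB, CRELD2, SDF2L1 and HYOU1. In CANX it was in 3 of 4 promoter entries, which overlap, at 9, 151 or 189 bases before their starts. Counted from its first base, it stood 225 bases before the start in CALR, 86 in PDIA6, 243 in ERO1LB, 80 in CRELD2, 117 in HERPUD1, 188 in SDF2L1, and 185 and 79 in HYOU1. The XBP1-type core TGACGTGG, searched on either strand, was in 0.729% of all promoters, or in promoters of 0.927% of all gene symbols. It was in promoters of 6 members, TXNDC5, HYOU1, UBE2J1, SEC62, SSR3 and SSR4, and in HYOU1 it overlapped an ERSE-II. The 8 genes with ERSE or ERSE-II had mRNA changes of -0.03 to 0.29 with a median of 0.06, and the 34 with a promoter and neither element had a median of 0.07 and a range of -0.19 to 0.22. Of the 8, 3 rose and 0 fell. Of the 34, 4 rose and 3 fell. Over all genes tested 3.75% rose and 2.00% fell, and among genes with a mean of at least 1000 mRNA-seq reads 13.6% passed. Whether the element and the mRNA change go together was not tested. P4HB, PDIA4, SEC61A1 and SEC63 rose with no match in these windows, which says only that these letters are not there.

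Ribosome occupancy of the CDS passed the test for 0 of the 45 genes in edgeR's quasi-likelihood test, where 2.81% of the 10291 genes tested passed. DESeq2 called 0 of them too. In edgeR 4 of the 45 had an unadjusted p under 0.05, a smaller share than the 17.6% of all genes. The median log2 change of the 45 genes was -0.02, beside 0.00 over all genes. SEC61G (NM_014302), a small subunit of the SEC61 channel, had 61 and 1034 CDS ribo-seq reads in control against 104 and 526 in arsenite, or 35.3 and 135 CPM against 111 and 161. The arsenite library was the higher within each replicate, by 1.65 in replicate 1 and 0.26 in replicate 2 (log2), and the fitted change was 0.80 ± 0.25 (n = 2, adjusted p = 0.0826 by edgeR). With upper-quartile or RLE scaling, without a filter on low counts or with a minimum mean of 50 counts, SEC61G passed with an adjusted p of 0.00494 to 0.0201 by edgeR. Its control replicates differed, with a ratio of ribo-seq to mRNA-seq CDS reads of 0.480 and 1.68 times the bulk. SEC62 (NM_003262), which takes part in the post-translational entry of small proteins, had 125 and 495 reads in control compared with 130 and 254 in arsenite. Its CPM were 72.2 and 64.4 against 139 and 77.9, so that the groups do not overlap, and the change of 0.57 ± 0.21 did not pass (n = 2, adjusted p = 0.152 by edgeR).

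Among the lower values, P4HB had 1587 and 3286 CDS ribo-seq reads in control against 702 and 977 in arsenite. Scaled to CPM these were 917 and 428 in control compared with 748 and 300 in arsenite, a change of -0.41 ± 0.18 that did not pass (n = 2, adjusted p = 0.24 by edgeR). TXNDC5, another disulfide isomerase, had 23 and 158 reads in control against 1 and 49 in arsenite. Its fitted change of -0.84 ± 0.38 (n = 2, adjusted p = 0.251 by edgeR) includes a replicate with 1 read. The files also list a read-through transcript, BLOC1S5-TXNDC5, and reads of more than 1 gene were discarded, so the counts of TXNDC5 are uncertain. SDF2L1 (-0.44 ± 0.24), EDEM2, a mannosidase that marks glycoproteins for ERAD (-0.44 ± 0.36), and VIMP, a membrane selenoprotein that binds the retrotranslocation machinery (-0.37 ± 0.22), were lower in both replicates without passing. ERLEC1, an ERAD lectin (0.43 ± 0.28), ERO1LB (0.34 ± 0.34) and HERPUD1 (0.30 ± 0.22) were higher in both replicates without passing. CALR, which rose in mRNA level, was at 0.02 ± 0.18, with 0.18 in replicate 1 and -0.14 in replicate 2.

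**Figure D3:**
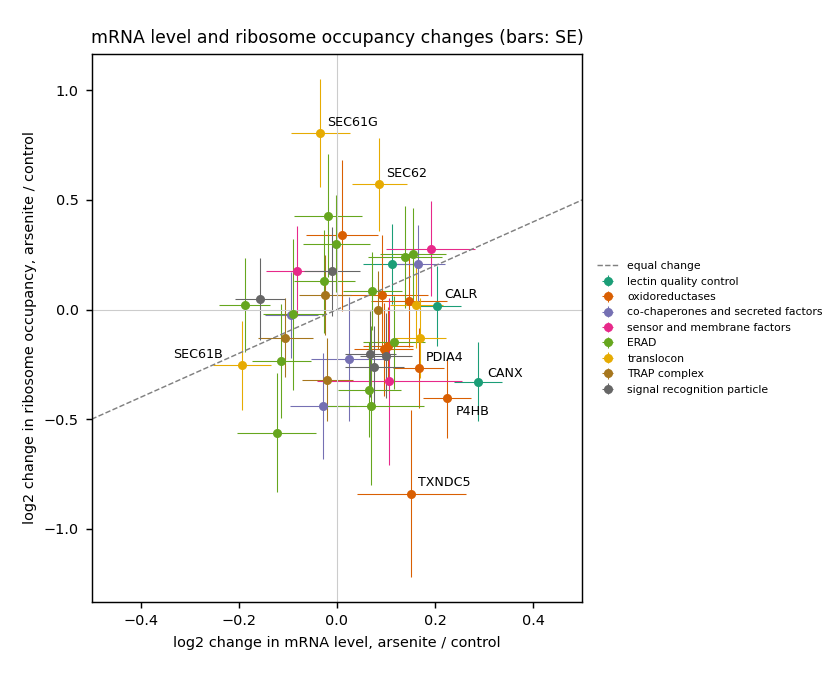
Log2 change in ribosome occupancy (vertical axis) against log2 change in mRNA level (horizontal axis), arsenite against control, for the 45 genes coloured by role. Bars are standard errors and the dashed line marks equal change. The vertical scale is wider than the horizontal one, and CANX and P4HB lie to the right of 0 and below it.

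TE, the change in occupancy less the change in mRNA level, passed for 0 of the 45 genes by edgeR, where 2.00% of 10273 genes passed. DESeq2 called 0 of them. In edgeR 6 of the 45 had an unadjusted p under 0.05, a smaller share than the 21.1% of all genes. The median log2 change in TE was -0.08 over the 45 genes and -0.01 over all genes, and leaving out replicate 1 brought the members' median to 0.00. The mRNA-seq counts enter TE and the mRNA level alike, so a gene with a higher mRNA estimate has a lower TE estimate for the same occupancy.

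CANX and P4HB, the genes of the list with the lowest p for TE, had lower values in both replicates. The ratio of ribo-seq to mRNA-seq CDS reads of CANX, relative to the bulk, was 3.02 and 2.30 in control compared with 1.97 and 1.35 in arsenite. The groups do not overlap, and the fitted change, which takes mRNA-seq reads of the whole transcript, was -0.62 ± 0.14 (log2 ± SE, n = 2), just outside the threshold (adjusted p = 0.0579 by edgeR). The same ratio of P4HB was 1.59 and 1.44 in control against 1.11 and 0.870 in arsenite, with a change of -0.63 ± 0.15 (n = 2, adjusted p = 0.0637 by edgeR). Without a filter on low counts both passed (adjusted p = 0.0275 and 0.039 by edgeR), and with the other alternatives neither did. For both genes the mRNA level rose while the occupancy estimate was negative (-0.33 ± 0.18 for CANX). Relative to the bulk of mRNAs, the ratio of CANX in arsenite was still above 1 in both replicates.

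PDIA4 followed with a TE change of -0.45 ± 0.18 (n = 2, adjusted p = 0.199 by edgeR), of which -0.78 was seen in replicate 1 and -0.15 in replicate 2. VIMP, which is also a selenoprotein, had -0.41 ± 0.16 (n = 2, adjusted p = 0.188 by edgeR), with -0.49 and -0.36 in the replicates, on 150 and 348 CDS ribo-seq reads in control compared with 59 and 121 in arsenite. TXNDC5 (-0.84 ± 0.37) and ERN1 (-0.49 ± 0.34) rest on few reads, with 10 to 76 CDS ribo-seq reads per library for ERN1. On the other side, ERLEC1 was at 0.50 ± 0.21 (n = 2, adjusted p = 0.219 by edgeR), with 0.35 and 0.56 in the replicates, from 39 and 122 reads in control against 24 and 77 in arsenite. SEC61G (0.65 ± 0.30), SEC62 (0.44 ± 0.20), ERO1LB (0.32 ± 0.26) and HERPUD1 (0.30 ± 0.15) were likewise higher in both replicates and did not pass.

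By role, the medians for TE were -0.24 over the 8 oxidoreductases, -0.19 over the 3 lectin genes, -0.28 over the 5 targeting genes, -0.11 over the 5 translocon genes, -0.05 over the 4 TRAP genes, -0.08 over the 4 co-chaperones and secreted factors, 0.00 over the 13 ERAD genes and 0.11 over the 3 sensor and membrane factors, beside -0.01 over all genes tested. The median of the 5 targeting genes was -0.102 within replicate 1 and 0.005 within replicate 2, and only 1 of them had the same sign in both. In the translocon the range was -0.29 (SEC61A1) to 0.65 (SEC61G). Among the 4 TRAP genes, which encode subunits of 1 complex, values ran from -0.29 (SSR3) to 0.11 (SSR2), with standard errors of 0.15 to 0.17. OS9 was at 0.00 ± 0.14, SSR4 at -0.03 ± 0.15, HYOU1 at 0.04 ± 0.16, and CKAP4 at 0.21 ± 0.17. The standard error of TE had a median of 0.18 over the 45 genes.

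**Figure D4:**
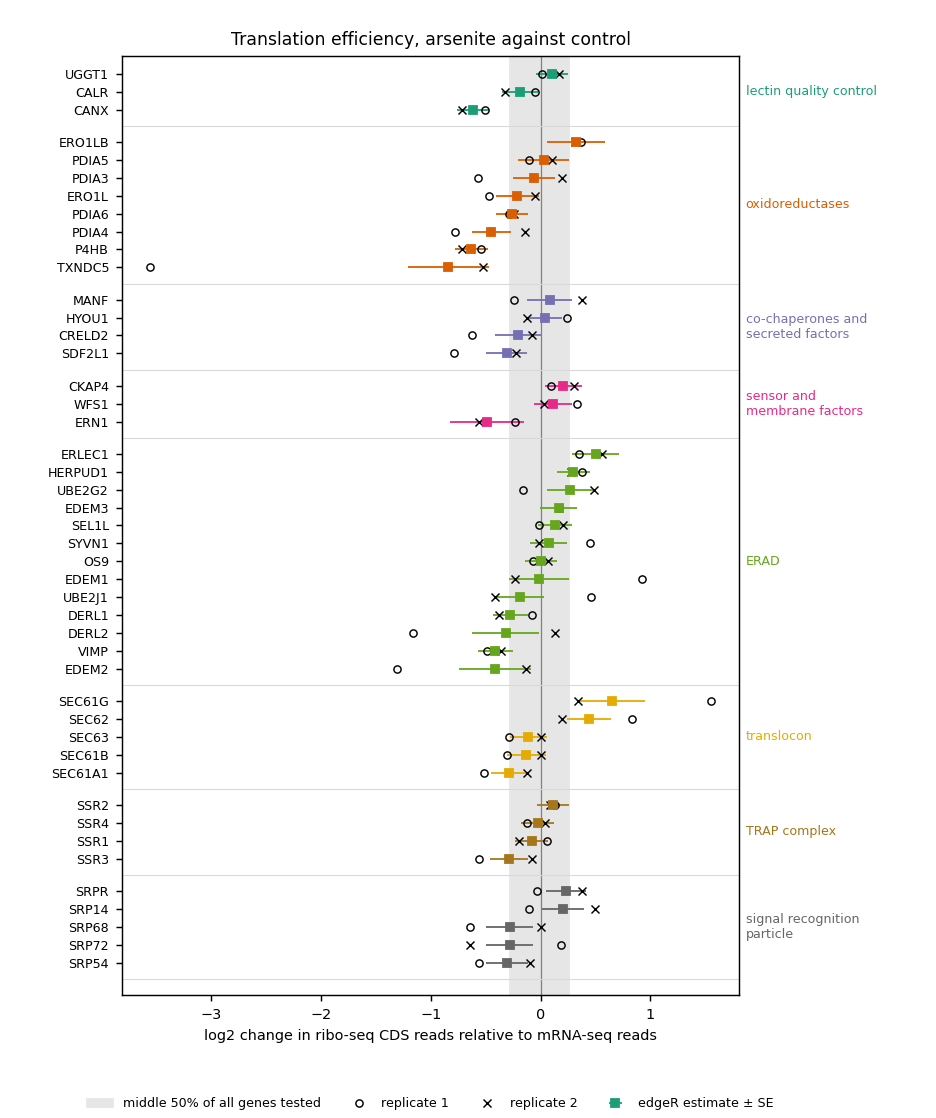
Log2 change in TE, arsenite against control, of the 45 genes by role, drawn as in the plot of mRNA changes with the grey band for the 10273 genes tested. No member passed the test. CANX, P4HB, VIMP and TXNDC5 have both replicates left of the band, and ERLEC1, ERO1LB, HERPUD1 and SEC61G have both right of it. The point of TXNDC5 at -3.56 rests on 1 ribo-seq read.

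In control cells, the ribosome load of these mRNAs spread widely. TE in control, as the ratio of ribo-seq to mRNA-seq CDS reads relative to the bulk, differed from the bulk for 10 of the 45 genes (22.2%), close to the 22.0% of all 10260 genes tested by edgeR. Of the 10, 7 were higher, where 8.30% of all genes were, and 3 lower, where 13.7% were. The median log2 value was 0.27 over the 45 genes and 0.01 over all genes. With the replicate left out as a block 0 members passed, and with a minimum mean of 50 counts 3 did, PDIA3, CANX and ERLEC1, while EDEM1 and ERO1LB fell under that minimum.

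The highest control TE in the list belonged to PDIA3 (NM_005313), at 3.71 and 2.26 times the bulk in replicates 1 and 2 and 2.86 in the fit (log2 1.52 ± 0.32, n = 2, adjusted p = 0.006 by edgeR). PDIA3 has the processed copy PDIA3P in the files, which held 1 read over all 8 libraries together. The authors discarded reads that fit more than 1 gene, so the counts of PDIA3 are those of reads that tell the copies apart, and its values are uncertain. CANX followed, at 3.02 and 2.30 times the bulk (log2 1.40 ± 0.32, adjusted p = 0.00905 by edgeR), which put it at percentile 97.5 of all genes tested. SRP54, the subunit that binds the signal sequence, was at 2.98 and 1.64 (log2 1.14 ± 0.32, adjusted p = 0.0221 by edgeR). CALR was at 2.14 and 2.14 (log2 1.10 ± 0.30) and PDIA4 at 2.18 and 2.01 (log2 1.06 ± 0.30), each with an adjusted p of 0.0222 by edgeR. SEL1L and SEC61A1 also passed, at 1.99 and 1.88 times the bulk.

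At the low end stood EDEM1, a mannosidase-like protein of ERAD, with a control TE of 0.185 and 0.443 times the bulk (log2 -1.68 ± 0.38, n = 2, adjusted p = 0.00886 by edgeR). It had 13 and 117 CDS ribo-seq reads beside 136 and 471 mRNA-seq CDS reads. ERLEC1 was at 0.425 and 0.294 (log2 -1.53 ± 0.33, adjusted p = 0.00612 by edgeR) and ERO1LB at 0.687 and 0.320 (log2 -1.20 ± 0.39, adjusted p = 0.0444 by edgeR). ERO1LB lost the call with RLE scaling and with the transcript with most control mRNA-seq reads (adjusted p = 0.0523 and 0.0512 by edgeR). EDEM1 and ERLEC1 lay at percentiles 5.1 and 6.7 of all genes. ERO1L, the paralog of ERO1LB, was at 1.49 and 0.780, and the difference between the paralogs was not tested. The fitted log2 values ran from -1.68 to 0.99 over the 13 ERAD genes and from -0.03 to 0.86 over the 4 TRAP genes. A range grows with the number of genes, so these do not compare the spread of the groups.

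**Figure D5:**
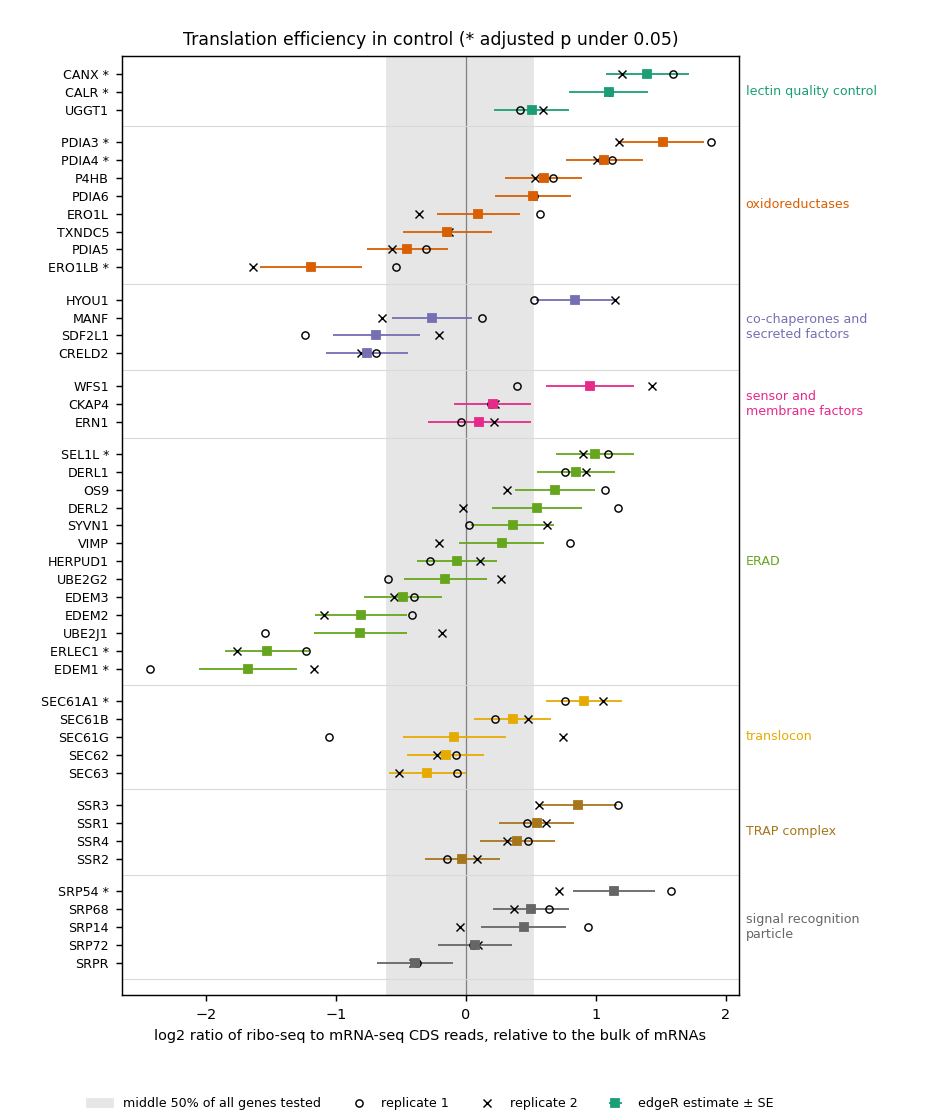
Log2 ratio of ribo-seq to mRNA-seq CDS reads in control, relative to the bulk, of the 45 genes by role, drawn as in the plot of mRNA changes with the grey band for the 10260 genes tested. CANX, CALR, P4HB, PDIA3, PDIA4, HYOU1, SEL1L, DERL1, SEC61A1, SSR3 and SRP54 lie right of the band in both replicates. EDEM1, ERLEC1 and CRELD2 lie left of it in both.

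Summed over the 45 genes, ribosomes on 5′ leaders were rare. The sum is weighted to deeply read genes such as CALR, with 0 leader reads beside 11463 CDS reads over the ribo-seq libraries, and CANX (16 beside 15661). Some members had more leader reads for their CDS reads, such as ERO1LB (9 beside 129), UBE2J1 (24 beside 526) and ERLEC1 (10 beside 262). Leaders held 16 of 18410 ribo-seq reads of the 45 genes in control replicate 1 (0.0869%, 95% Wilson interval 0.0535% to 0.141%) and 144 of 53512 in replicate 2 (0.269%, 0.229% to 0.317%). In arsenite they held 6 of 9064 (0.0662%, 0.0303% to 0.144%) and 98 of 21858 (0.448%, 0.368% to 0.546%). These shares lay below those of all genes, which were 0.392% and 0.795% in control compared with 0.490% and 1.52% in arsenite, and intervals cover counting error only. In replicate 2 the share of the 45 genes was higher in arsenite than in control and the intervals do not overlap, while in replicate 1 they do. Of the 45 genes, only SSR2, a TRAP subunit, had enough leader reads to test, with 3 and 23 in control against 1 and 19 in arsenite. Its leader to CDS shift was 0.32 with -0.37 in replicate 1 and 0.87 in replicate 2, and it did not pass (n = 2, adjusted p = 0.997 by edgeR). Of 647 genes, 0 passed (0%) and 2 had an unadjusted p under 0.05 by edgeR in this model, which takes 1 leader share for both replicates. With a leader share per replicate, a model chosen after seeing the data, 11 of 647 passed and 154 had an unadjusted p under 0.05, and SSR2 did not pass (adjusted p = 0.541 by edgeR). The 0 of the former model therefore does not show that leader shifts were lacking.

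Reads in 3′ UTRs made up 0.0869% and 0.155% of the ribo-seq reads of the 45 genes in control compared with 0.221% and 0.737% in arsenite. Over all genes these shares were 0.102% and 0.204% in control against 0.201% and 0.755% in arsenite. In control replicate 2 the share of the 45 genes was the lower, and its interval of 0.125% to 0.192% leaves out that of all genes. In the other libraries their interval included the share of all genes.

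The same tests were read for 71 other ER genes of the same pathways. They came from a list of chaperones, glycan-trimming enzymes, oligosaccharyltransferase, signal peptidase and further ERAD and insertion factors. In mRNA level 13 rose and 1 fell by edgeR, with a median log2 change of 0.04. That was 19.7% of this list, beside 22.2% of the 45 genes and 5.75% of all genes tested. PRKCSH and GANAB, the subunits of the glucosidase that trims glycans for CANX and CALR, rose by 0.45 ± 0.05 and 0.21 ± 0.05 (n = 2, adjusted p = 1.05e-14 and 0.00239 by edgeR). HSPA5, the main lumenal HSP70 chaperone, was at 0.03 ± 0.05 in mRNA level and 0.20 ± 0.15 in TE. In TE, where 2.00% of all genes passed, 1 of 70 tested was higher and 1 lower (2.86%). They were XBP1, the transcription factor of the unfolded protein response, at 1.26 ± 0.16 (n = 2, adjusted p = 0.0114 by edgeR), and PRKCSH at -0.80 ± 0.16 (n = 2, adjusted p = 0.0385 by edgeR). In occupancy, where 2.81% of all genes passed, XBP1 was the 1 call (1.43%), at 1.28 ± 0.20 (n = 2, adjusted p = 0.00123 by edgeR). PRKCSH, whose mRNA rise also enters its TE, stood at -0.35 ± 0.18 in occupancy and did not pass (n = 2, adjusted p = 0.317 by edgeR).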

How the data were processed

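Ribo-seq and mRNA-seq counts were deposited per RefSeq transcript, with separate columns for leader, coding and 3′ UTR reads in each of 35851 coding transcripts. The authors made these counts by removing adapters with cutadapt, setting aside rRNA and spike-in reads, aligning with Bowtie 1.0.0 and discarding reads of more than 1 gene. They assigned footprints to the A-site, and the counts are not normalized. Region counts summed to the total in every coding transcript of all 8 libraries.

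Each gene was represented by the coding transcript to which the control ribo-seq libraries together gave most CDS reads, which matters for the 20 members with more than 1 coding transcript. Samples were grouped by their labels. Tests were by quasi-likelihood in edgeR 4.0.16 (R 4.3.3) on genes whose mean count reached 10, with TMM scaling within an assay, the replicate as a block, Benjamini-Hochberg adjustment over all genes tested and a threshold of 0.05. The TE change was an assay by treatment interaction over 8 libraries, control TE the ratio of CDS reads of both assays (scaled jointly) in 4, and the leader to CDS shift an interaction of region and treatment. SE is the log2 change divided by the root of the F statistic. For changes inside 1 replicate, 0.5 was added to each count. The block follows the methods, where replicates differed in adapters and sequencing, and same-numbered libraries deviated together (correlation 0.689 over 10291 genes in ribo-seq, 0.71 over 12600 in mRNA-seq). Scripts were tested on simulated counts.

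Named members are those past the threshold (up to 5 per direction for control TE), up to 5 per direction with the largest change of the same sign in both replicates, and in each of 8 role groups the member with most control ribo-seq reads. Others, such as SEL1L, were added with their values in view. The members and lists were chosen with earlier results of these data known. Alternatives were upper-quartile and RLE scaling, DESeq2 1.42.0, other count minimums, no block, another transcript, other read regions, the Z-score of the methods (bins of 300 genes) and leaving out a replicate. Promoters were searched with Python 3.11.15 and figures drawn with matplotlib 3.10.9.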

Additional observations from a re-analysis of the deposited data

How the results depend on the processing

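The count of members with a changed mRNA level was 10, and it was 1 with DESeq2, 0 without the replicate block, 3 with mRNA-seq reads over the CDS and 0 by the Z-score in replicate 2. Over all genes these settings gave 86, 0, 240 and 24 calls in place of 725. Of the 10, 7 kept their call with upper-quartile scaling and 7 without a filter. SEC61B ran from -0.267 without replicate 1 to 0.091, a reversal, without replicate 2, and the median of the members from 0.031 to 0.078. For occupancy, 0 members became 1 (SEC61G) with upper-quartile scaling, RLE, no filter and a minimum of 50 counts, while all genes called went from 289 to 477, 556, 540 and 578, and to 53 with DESeq2, 0 without the block and 13 by the Z-score. For TE, 0 members became 2 without a filter, the median ran from -0.11 to 0.00 with a replicate left out, and 205 genes became 433 without a filter, 130 with at least 50 counts, 95 with DESeq2, 0 without the block, 87 with CDS reads and 9 by the Z-score. For control TE, 10 members became 3 with at least 50 counts and 0 without the block, and 2254 genes became 1018 and 353, or 3443 without a filter. The median of 0.27 became 0.20 with upper-quartile scaling, 0.31 with RLE, 0.34 without a filter, 0.23 with at least 50 counts, 0.35 without the block, and 0.22 to 0.23 with a replicate left out. The median control TE over all genes moved too, from 0.006 to -0.062 with upper-quartile scaling and 0.047 with RLE. It was -0.049 without a filter, and 0.025 with at least 50 counts and without the block. The cause of these shifts was not tested. The leader to CDS shift called 0 members in each setting that tested SSR2, and with at least 50 counts no member was tested. A model with a replicate block on the leader share, chosen after seeing the data, called 11 of 647 genes and put SSR2 at 0.62 ± 0.64 (adjusted p = 0.541 by edgeR). Leaving out a replicate leaves no residual spread, so those values have no test. Standard errors of the members were 0.178 to 0.379 for occupancy and 0.049 to 0.15 for mRNA level, and the value of TXNDC5 in arsenite replicate 1 rests on 1 ribo-seq read.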
